A study of Homo sapiens with 11 samples.

Results

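The genomic surroundings of PER1 and KLF9 were described across 5 ChIP-seq peak lists, which map where the glucocorticoid receptor (GR) and the protein modifiers SUMO-2 and SUMO-3 (mapped together as SUMO-2/3) lie on chromatin. Every listed site overlapping chr17:7956000-8156000 (PER1) or chr9:72930000-73130000 (KLF9), in build hg19, was taken; these windows reach 100 kb to each side of a centre that stands for the start site and was not read from an hg19 annotation. They held 60 of the 51024 sites in all lists, 38 around PER1 and 22 around KLF9. By list these were 12 of 11259 wild-type GR sites, 14 of 18856 3KR GR sites, 4 of 1016 control-line GR sites, 17 of 12109 wild-type SUMO-2/3 sites and 13 of 7784 3KR SUMO-2/3 sites.

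All samples were isogenic HEK293 cells, an established human embryonic kidney line, made with the Flp-In system, which inserts a transgene at a prepared genomic site. The wild-type line stably expressed wild-type GR, the 3KR line expressed the SUMOylation-defective receptor GR3KR, and the control line (FRT) expressed no GR transgene. All had 72 h in steroid-depleted medium and then 1 h of 100 nM dexamethasone, a synthetic glucocorticoid, so no untreated sample is part of the comparison. GR and SUMO-2/3 were each mapped in 2 libraries of the wild-type and the 3KR line, and GR in 1 library of the control line. The 2 libraries of a group share 1 set of site positions, so a number of sites has no replicate error. Whether a line is 1 clone is not stated in the labels. The peaks held 1109129 to 4600440 tags per duplicate library and 208776 in the control library, a sum that also follows the number of listed sites, and the total depth of the libraries is unknown.

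PER1 encodes a repressor of the circadian clock: PER and CRY proteins inhibit CLOCK:BMAL1, the activator that binds E-boxes and drives their genes. KLF9 is a Krüppel-like zinc finger factor that binds GC-rich elements. Both are well-known early targets of glucocorticoids, hormones that can reset clocks in peripheral tissues. GR binds DNA as a ligand-activated factor, and conjugation of SUMO to it or to its partners is generally linked to restrained transcription.

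The promoters of both genes are shown because the windows are centred on their starts and because the 2 sequences are unlike in base composition. They are RefSeq sequences of build GRCh38.p14, minus strand, 250 bases before and 50 after the annotated start (PER1 chr17:8152355-8152654, KLF9 chr9:70414608-70414907). Capitals mark the motifs found. They were not placed on the hg19 sites, since no hg19 genome was used here.
PER1: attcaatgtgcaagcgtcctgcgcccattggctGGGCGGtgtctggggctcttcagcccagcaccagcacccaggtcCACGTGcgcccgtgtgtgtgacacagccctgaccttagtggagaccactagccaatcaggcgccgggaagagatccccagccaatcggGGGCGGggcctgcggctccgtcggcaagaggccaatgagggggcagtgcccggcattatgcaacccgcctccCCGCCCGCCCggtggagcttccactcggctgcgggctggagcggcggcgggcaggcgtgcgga
KLF9: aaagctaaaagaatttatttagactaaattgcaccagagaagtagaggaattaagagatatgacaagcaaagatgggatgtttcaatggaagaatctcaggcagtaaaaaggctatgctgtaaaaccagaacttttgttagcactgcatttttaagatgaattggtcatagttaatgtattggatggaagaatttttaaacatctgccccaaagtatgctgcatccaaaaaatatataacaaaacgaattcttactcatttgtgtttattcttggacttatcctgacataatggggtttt

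Both strands were searched for 5 motifs. The PER1 promoter held 1 E-box (CACGTG, bases 78 to 83) and 4 GC boxes (GGGCGG or its reverse complement CCGCCC), of which the last 2, at bases 238 to 243 and 242 to 247, share 2 bases, and its GC content was 69.0%. The KLF9 promoter held none of the 5 and had a GC content of 32.7%, against a median of 58.7% over 35116 promoters. Among all promoters, 7.26% held CACGTG and 45.0% held GGGCGG. The single GR element AGAACA (14.8% of promoters), the GR palindrome (0.390%) and the cAMP response element TGACGTCA (1.85%) were not among the letters of either promoter. Of 23 other clock genes, 20 had a promoter sequence, and 5 of these held the E-box: BHLHE40 and BHLHE41, repressors that compete for E-boxes, CIART, a repressor of CLOCK:BMAL1, TEF, a clock output factor, and TIMELESS. Of the same 20 promoters, 16 held the GC box, 2 AGAACA, 1 the cAMP response element and 0 the GR palindrome. The sites at these clock genes were not analysed here, because no hg19 annotation was used.

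Next to the PER1 start, a GR site was listed in all 3 lines. It lay 0.26 to 1.22 kb from the window centre on the gene side in the wild-type list (chr17:8054785-8055742) and ranked 419 of 11259 by fold enrichment over background. Both genes lie on the minus strand in RefSeq, so the gene side has lower and the upstream side higher coordinates. Wild-type library 1 had 212 tags in a peak of 958 bp with a fold enrichment of 33.16. Wild-type library 2 had 1816 tags in a peak of 7678 bp with a fold of 42.99. The 3KR site (chr17:8054767-8055716, rank 701 of 18856) had 312 tags in 950 bp with a fold of 41.98 in library 1, and 998 tags in 3988 bp with a fold of 46.85 in library 2. In both lines the site lay 3.72% from the top of its list, and library 2 had read a longer stretch as 1 peak. The deposited tag counts belong to each library's own peak, so raw counts at this place compare different lengths: per kb of peak they were 221 and 237 in the wild-type line and 328 and 250 in the 3KR line. In the control line the site (chr17:8054768-8055762) had 121 tags, 122 per kb, and a fold of 12.83, at rank 442 of 1016 and an FDR of 6.52%.

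A GR site on the upstream side of PER1 was listed in the control and 3KR lines and not in the wild-type line. In the control line it lay 0.53 to 2.42 kb upstream (chr17:8056531-8058417), with 428 tags, a fold of 15.22 and an FDR of 2.60%, above the gene-side site in rank (312 of 1016). In the 3KR line (chr17:8057245-8058598) library 1 had 403 tags in 1369 bp and a fold of 11.34, 88.2% from the top of that library. Library 2 read it as part of the same 3988 bp peak as the gene-side site, so its 998 tags and fold of 46.85 are not values of the upstream site alone. In the wild-type line the stretch is outside the listed site, but the 7678 bp peak of library 2 was 6720 bp longer than that site. The position of that peak is not given, and whether it covers the upstream stretch cannot be read from the lists. Another 3KR site, 2.01 to 2.80 kb on the gene side (chr17:8053196-8053988), was weak, with 70 and 103 tags and folds of 10.60 and 14.59 in libraries 1 and 2.

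**Figure D1:**
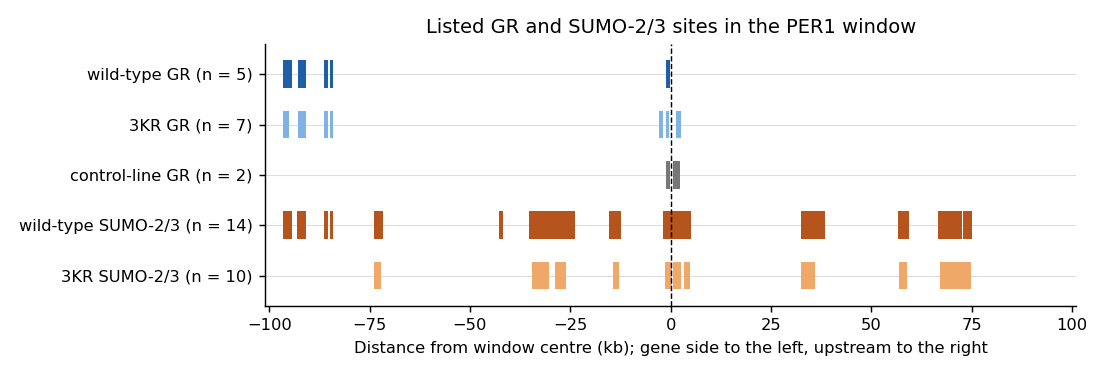
Sites listed in the PER1 window, plotted by distance from the window centre in kb, 1 row per list with its number of sites; each block spans a listed site. GR sites gathered next to the centre and at 84 to 97 kb on the gene side, while SUMO-2/3 sites were spread over both sides.

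The other GR sites of the PER1 window formed a cluster of 4 on the gene side, listed in both transgene lines and not in the control line. There, in the list of the wild-type receptor, midpoints lay 95.4, 91.8, 85.8 and 84.4 kb from the centre, with ranks of 2618, 3138, 3040 and 2826 of 11259. The last 2 ranks rest partly on the fold of a library 2 peak that these 2 sites share (24.46). In wild-type library 1 alone the 4 sites lay 27.1%, 22.0%, 47.1% and 43.5% from the top, in the same order. The farthest (chr17:7959375-7961735) had 330 and 625 tags and folds of 21.64 and 19.21 in wild-type libraries 1 and 2, and 299 and 312 tags with folds of 20.27 and 13.97 in the 3KR libraries. The next (chr17:7963210-7965269) had 281 and 564 wild-type and 354 and 339 3KR tags. In raw tags both wild-type libraries lay above both 3KR libraries at the farthest site, and at the next the lines overlapped, with wild-type library 1 the lowest and library 2 the highest. Raw tags, here and below, are not adjusted for library size or peak length. At the last pair (chr17:7969699-7970613 and chr17:7971199-7972001), wild-type library 1 had 105 and 94 tags, and library 2 read both as 1 peak of 2385 bp with 531 tags. The 3KR libraries had 144 and 197 tags at the first of the pair and 91 and 123 at the second. The cluster did not end at the window: 10.7 kb beyond the edge the next wild-type GR site, outside the window, had folds of 36.28 and 28.46, more than any of the 4 inside. On the upstream side no GR site of any list lay between 2.60 kb and the window edge, and the next one was 178 kb past the edge.

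SUMO-2/3 was densely listed around PER1, with 14 wild-type and 10 3KR sites. Of 15172 tiles of 200 kb, 5 (0.0330%) held at least 14 wild-type sites and 12 (0.0791%) at least 10 3KR sites, given as a description of a window chosen by its gene. The sites covered 48183 bp of the window in the wild-type line against 28930 bp in the 3KR line, with median widths of 2311 and 2018 bp against 1080 and 1036 bp in the whole lists. Listed sites were read as the part common to both libraries, and the lists differ in size, so these lengths are no test of a change. For GR the PER1 window held 5 and 7 sites, numbers reached by 2.66% and 2.29% of tiles, and the control line held 2, reached by 0.890%. In RefSeq order the nearest protein-coding neighbours of PER1 are HES7 on the gene side and VAMP2 upstream; sites were not assigned to them, because that table is in another build.

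The SUMO-2/3 site at the PER1 start covered the window centre in either line. The wild-type site was 4709 bp wide (chr17:8054154-8058862, rank 322 of 12109), spanning both the gene-side and the upstream GR positions, with 814 and 1595 tags and folds of 33.33 and 39.09. Those tags were counted in peaks of 5482 and 6816 bp, and the longer peak also held the next listed site upstream. In the 3KR line 2 narrower sites stood in place of the wild-type site. The gene-side one (chr17:8054706-8056460, rank 5369 of 7784) had 114 tags and a fold of 8.15 in library 1, just above the listing limit of 8. The upstream one (chr17:8056553-8058544, rank 2468) had 158 tags and a fold of 12.94, and library 2 read both as 1 peak with 770 tags and a fold of 17.69. The start was therefore 2.66% from the top of the wild-type list and 69.0% and 31.7% from the top of the 3KR list. These ranks describe lists of different lengths and are no test of a change. Farther upstream, a site at 2.91 to 4.97 kb (chr17:8058913-8060969) was listed in both lines and overlapped no GR site.

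**Figure D2:**
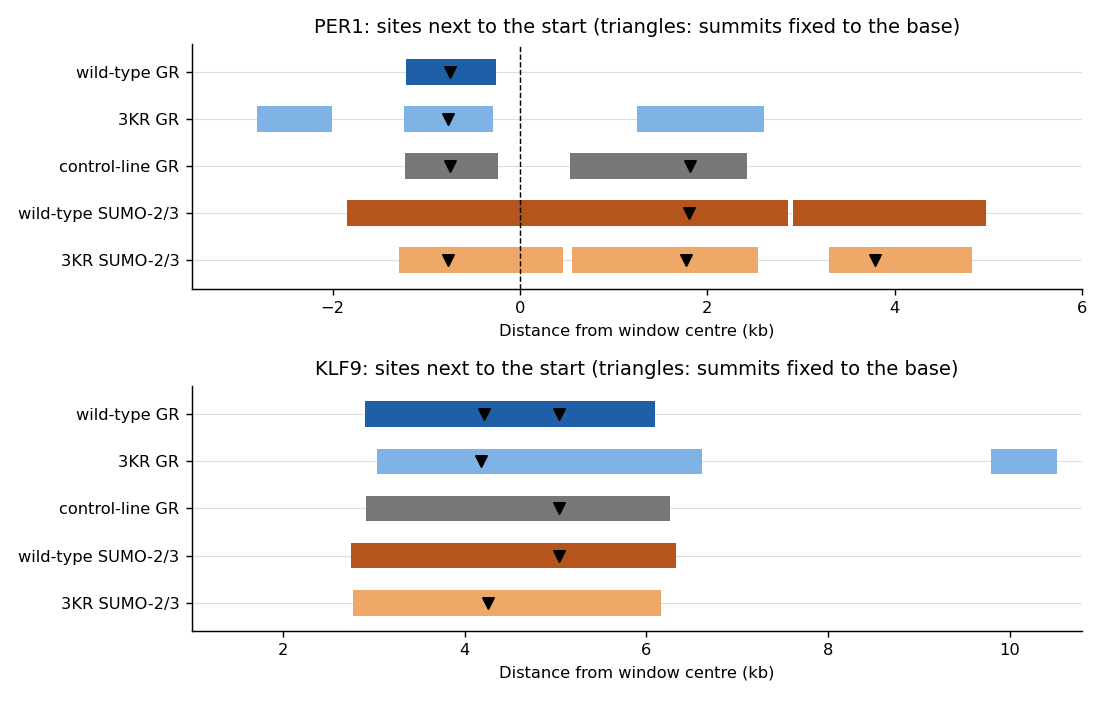
Listed sites next to the starts of PER1 (top) and KLF9 (bottom), plotted by distance from the window centre in kb, 1 row per list; triangles mark summits known to the base. At PER1 the summits formed a gene-side group spanning 22 bp and an upstream group spanning 48 bp, and a further 3KR SUMO-2/3 summit lay 3.79 kb upstream. At KLF9 the summits fell into 2 groups spanning 72 and 3 bp.

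Several strong SUMO-2/3 sites of the PER1 window lay away from GR, 2 of them ranked above the wild-type site at the start. The site at 23.7 to 35.3 kb on the gene side (chr17:8020753-8032273) was 11521 bp wide, the second widest of the 12109 wild-type sites, with 3015 and 4089 tags and folds of 44.23 and 44.01. In the 3KR line it was listed as 2 sites, chr17:8021529-8025720 and chr17:8027289-8029819, at ranks 66 and 61 of 7784, which library 2 read as 1 peak of 10513 bp with 3474 tags. A site at 12.5 to 15.5 kb on the gene side (chr17:8040542-8043529) had 1128 and 1425 wild-type tags at rank 187, and its 3KR counterpart 788 and 1100 tags at rank 76. Upstream, a pair at 66.6 to 75.0 kb (chr17:8122584-8128587 and chr17:8128766-8131024, ranks 533 and 778) corresponded to a single 3KR site of 7957 bp, the tenth widest of its list, with 3001 and 4240 tags. The site at 32.4 to 38.5 kb upstream (chr17:8088382-8094544) had 2157 and 3068 wild-type and 1398 and 2523 3KR tags. None of these overlapped a GR site of any line. In raw tags both 3KR libraries lay below both wild-type libraries at chr17:8040542-8043529, while at chr17:8088382-8094544 3KR library 2 lay between the 2 wild-type libraries. These counts are not adjusted for library size or peak length. In the edgeR fit described below, the log2 ratio of 3KR over wild-type at chr17:8040542-8043529 was -0.06 (SE 0.25), and 0.60 per length of peak. The remaining sites with a counterpart, at 72.7 kb on the gene side (chr17:7982193-7984381; 207 and 408 wild-type, 106 and 315 3KR tags) and 58.0 kb upstream (chr17:8112516-8115412; 288 and 580 wild-type, 169 and 400 3KR tags), also had no GR.

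SUMO-2/3 accompanied all 4 distal GR sites of the PER1 window in the wild-type line and none of them in the 3KR line, although GR itself was listed at all 4 in both. The wild-type SUMO-2/3 sites there were weak. The strongest by rank (chr17:7959368-7961730, rank 8825 of 12109) had 285 and 403 tags and folds of 8.99 and 14.22. The weakest (chr17:7962949-7965067, rank 11984) had folds of 8.30 and 8.21. The other pair had 102 and 73 tags in library 1 and was read as 1 peak of 288 tags in library 2. Together with a site without GR at 41.8 to 42.8 kb (chr17:8013208-8014173), these were the 5 wild-type SUMO-2/3 sites of both windows with no 3KR counterpart. They ranked between 72.9% and 98.97% from the top of the list, and the 12 with a counterpart between 1.03% and 65.5%. Over the whole wild-type list, 23.0% of sites beyond 70% from the top and 58.3% of those within it overlapped a 3KR site. The part of the listing limits in this difference was not tested.

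Around KLF9, GR and SUMO-2/3 lay together upstream of the gene, apart from 2 upstream GR sites listed in the 3KR line alone, and GR lay without SUMO-2/3 on the gene side. The window held 7 GR sites in each transgene line, a number reached by 0.725% of tiles for wild-type and 2.29% for 3KR GR, and 3 SUMO-2/3 sites in each, reached by 10.7% and 5.20%. The control line again held 2 GR sites. In RefSeq order SMC5 and TRPM3 are the protein-coding neighbours on the gene side and upstream, again with no site assigned to them.

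The widest GR region of the KLF9 window lay 2.9 to 6.6 kb upstream of the centre and was found in all 3 lines. In the control line it was 1 site (chr9:73032915-73036256) with 547 tags and a fold of 26.92, rank 70 of 1016 and the strongest control-line site of both windows. In the 3KR line it was also 1 site (chr9:73033034-73036615, rank 3025 of 18856) with 561 and 741 tags and folds of 28.55 and 28.03. In the wild-type line it was listed as 2 sites with a gap of a few bases, chr9:73032902-73034794 and chr9:73034798-73036094. Library 1 had 142 and 97 tags there with folds of 13.61 and 8.31, and library 2 read them as 1 peak of 4235 bp with 895 tags and a fold of 27.87. Wild-type library 1 was thus the lowest of the 5 GR libraries at 75.0 and 74.8 tags per kb, and library 2 the highest at 211, with the control line at 164 and the 3KR libraries at 157 and 180. The wild-type libraries enclosed the values of the other lines.

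A second upstream GR site, 65.4 to 66.3 kb away (chr9:73095363-73096311), was also listed in all 3 lines. It had 107 and 281 tags in the wild-type libraries (rank 2544), 275 and 250 in the 3KR libraries (chr9:73095172-73096324, rank 1529) and 113 in the control line (rank 237). The site at 23.2 to 24.0 kb upstream (chr9:73053177-73053977) was listed in the transgene lines only, with 91 and 218 wild-type tags and 253 and 188 3KR tags. In raw tags the 2 lines overlapped at both places.

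On the gene side of KLF9, 12.1 to 31.3 kb away, the 3 wild-type GR sites were the lowest of the window by mean rank. No gene-side site carried SUMO-2/3 in either line. In wild-type library 1 alone, the upstream site chr9:73034798-73036094 had a lower fold (8.31) than these 3 (12.58, 9.68 and 13.57). The library 2 fold of that upstream site belongs to a peak shared with its neighbour. The site at 16.5 to 17.2 kb (chr9:73012830-73013519) was near the bottom of the wild-type list, at rank 10857 of 11259, with 81 and 163 tags and folds of 9.68 and 8.56. In the 3KR line it ranked 5544 of 18856, with 248 and 205 tags and folds of 23.46 and 19.47, and both 3KR libraries lay above both wild-type libraries. The site at 29.9 to 31.3 kb (chr9:72998727-73000085) had 136 and 187 wild-type and 185 and 175 3KR tags. The site at 12.1 to 13.1 kb (chr9:73016923-73017886, rank 8600, 111 and 163 tags) was the 1 wild-type GR site of both windows without a 3KR counterpart. It lay beyond 70% from the top of its list, where 76.3% of wild-type sites had a 3KR counterpart against 94.2% above that. The upstream sites listed in the 3KR line alone were chr9:73039800-73040517 with 71 and 68 tags and chr9:73118034-73118770 with 113 and 94. With the pair next to the PER1 start they were the 4 3KR GR sites without a wild-type counterpart. By mean rank 3 of them lay within 70% from the top, where 68.6% of 3KR sites had one, and beyond that 16.8% had. The mean rank of chr17:8057245-8058598 rests partly on the fold of a library 2 peak shared with the gene-side PER1 site. In 3KR library 1 alone, chr17:8057245-8058598 lay 88.2% from the top.

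**Figure D3:**
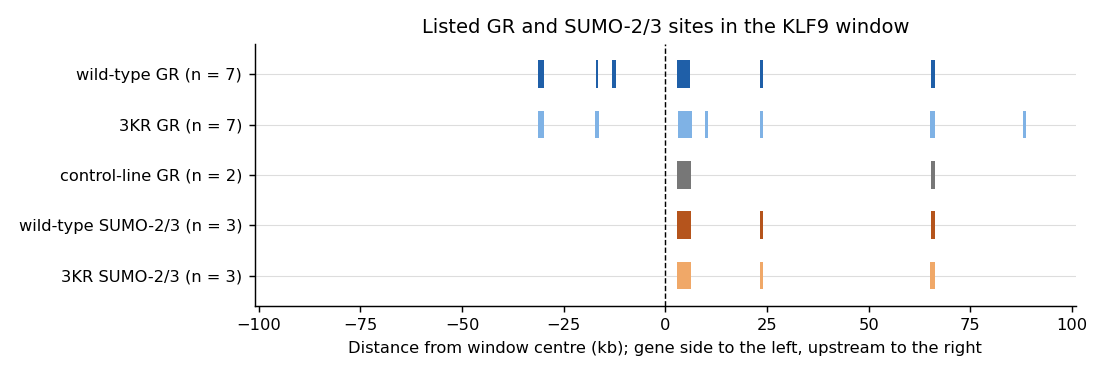
Sites listed in the KLF9 window, plotted by distance from the window centre in kb, 1 row per list with its number of sites; each block spans a listed site. The 3 SUMO-2/3 sites of each line lay upstream over GR sites, and the gene-side GR sites had no SUMO-2/3 block.

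The 3 SUMO-2/3 sites at KLF9 overlapped between the lines and each lay on a GR site of that line. The strongest covered the region next to the start (chr9:73032749-73036326, 3578 bp, rank 1571 of 12109), with 408 and 824 tags in the wild-type libraries and 338 and 933 in the 3KR libraries (chr9:73032770-73036166, rank 960 of 7784). The site at 65.8 kb upstream (chr9:73095243-73096324) had 127 and 206 tags against 95 and 161 in the 3KR line. The site at 23.7 kb upstream (chr9:73053363-73054101) had 57 and 114 wild-type and 77 and 131 3KR tags, at rank 7931 of the first list and 3103 of the second. At each of the 3 places the lines overlapped in raw tags, and library 2 was the higher of the pair in both lines.

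Where a library's own peak had the same length as the listed site, or as the whole stretch of the listed sites it held, its summit could be placed to the base. This held for 39 of 116 library values, which give 38 distinct summits, since 1 peak held 2 listed sites. At the gene-side PER1 site, 4 summits of wild-type GR, 3KR GR, control-line GR and 3KR SUMO-2/3 fell within 22 bp of each other, at 8055229 to 8055251 on chromosome 17. On the upstream side of PER1, the control-line GR summit at 8057816 lay within 48 bp of a wild-type SUMO-2/3 summit at 8057806 and a 3KR SUMO-2/3 summit at 8057768. The wild-type SUMO-2/3 summit of library 2, in its 6816 bp peak over 2 listed sites, was thus at the upstream position, and not at the gene-side position where wild-type GR had its listed site. At KLF9, 2 summit positions 785 bp apart lay within the region next to the start. Control-line GR, wild-type GR and wild-type SUMO-2/3 had summits within 3 bp at 73035040 to 73035043, and wild-type GR, 3KR GR and 3KR SUMO-2/3 within 72 bp at 73034183 to 73034255. Of the 2 wild-type GR summits, each belongs to 1 of its 2 sites in library 1. At 65.8 kb upstream, GR of all 3 lines and 3KR SUMO-2/3 shared a position within 20 bp, and at 23.7 kb upstream 3KR GR and SUMO-2/3 of both lines within 7 bp. Summits are the authors' offsets from a peak start and may be off by 1 base, as the counting of the offset is not stated.

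Sites of the windows were counted against the overlap of the whole lists. Of 12 wild-type GR sites, 11 overlapped a 3KR GR site, where 88.9% of the whole list did, and of 14 3KR GR sites 10 overlapped a wild-type site (53.0% of the list). The control line shared 4 of the 12 wild-type sites (7.49% of the list) and 4 of the 14 3KR sites (4.79%). Of its own 4 sites, 3 overlapped a wild-type GR site (82.0% of its list) and 4 a 3KR GR site (87.7%), and all 4 lay on SUMO-2/3 of the wild-type (42.9%) and of the 3KR line (33.5%). SUMO-2/3 of the same line lay on 9 of 12 wild-type GR sites (37.4% of the list) and on 5 of 14 3KR GR sites (15.6%). Seen from SUMO-2/3, 8 of 17 wild-type sites (34.3% of the list) and 5 of 13 3KR sites (37.6%) overlapped GR of the same line, with 3 of 3 at KLF9 in both lines and 5 of 14 and 2 of 10 at PER1. All 13 3KR SUMO-2/3 sites had a wild-type counterpart (74.7% of the list), and 12 of 17 wild-type sites had a 3KR counterpart (47.7%). With so few members, neighbouring sites that share a region, and members chosen by gene, these counts carry no test.

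Tags at sites listed in both lines were compared by edgeR's quasi-likelihood test over all sites that paired with a single site of the other line, 9763 for GR and 5651 for SUMO-2/3. Differences are log2 ratios of 3KR over wild-type, relative to the average shared site. In this fit, made without a replicate block, no member passed a Benjamini-Hochberg adjusted p of 0.05. For GR this held for all 9763 sites (0 called, 0%; 2285 had an unadjusted p under 0.05, and DESeq2 called 1505, 15.4%), and for SUMO-2/3 56 sites (0.991%; 14.9% with DESeq2) were called. The GR differences of the 5 PER1 sites were all below 0, from -1.66 to -0.56, and those of the 4 KLF9 sites ran from -0.19 to 0.60. The median GR difference of all shared sites was -0.30 on chromosome 17 and 0.13 on chromosome 9. Taken relative to these chromosome medians, the PER1 values ran from -1.37 to -0.27 and the KLF9 values from -0.32 to 0.47. The farthest PER1 site, at 95.4 kb, had -0.93 (SE 0.22, edgeR adjusted p = 0.103) and was called by DESeq2 (adjusted p = 0.000711), but per length of peak it was -0.47 (edgeR adjusted p = 0.297). The GR site at the PER1 start had -0.65 (SE 0.84, edgeR adjusted p = 0.674), and 0.00 (SE 0.26) per length of peak. Single libraries moved several of these values. At the start the value was 0.93 without wild-type library 2, -1.35 without wild-type library 1, 0.01 without 3KR library 1 and -1.89 without 3KR library 2. At the pair of distal sites that wild-type library 2 had read as 1 peak, the values without that library were -0.04 at 85.8 kb and -0.56 at 84.4 kb, against -1.03 and -1.66 with it. Without wild-type library 1, which leaves 1 library to that line, the values were -1.56 at 85.8 kb and -2.24 at 84.4 kb. The KLF9 site at 16.8 kb on the gene side had 0.60 (SE 0.22, edgeR adjusted p = 0.181).

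**Figure D4:**
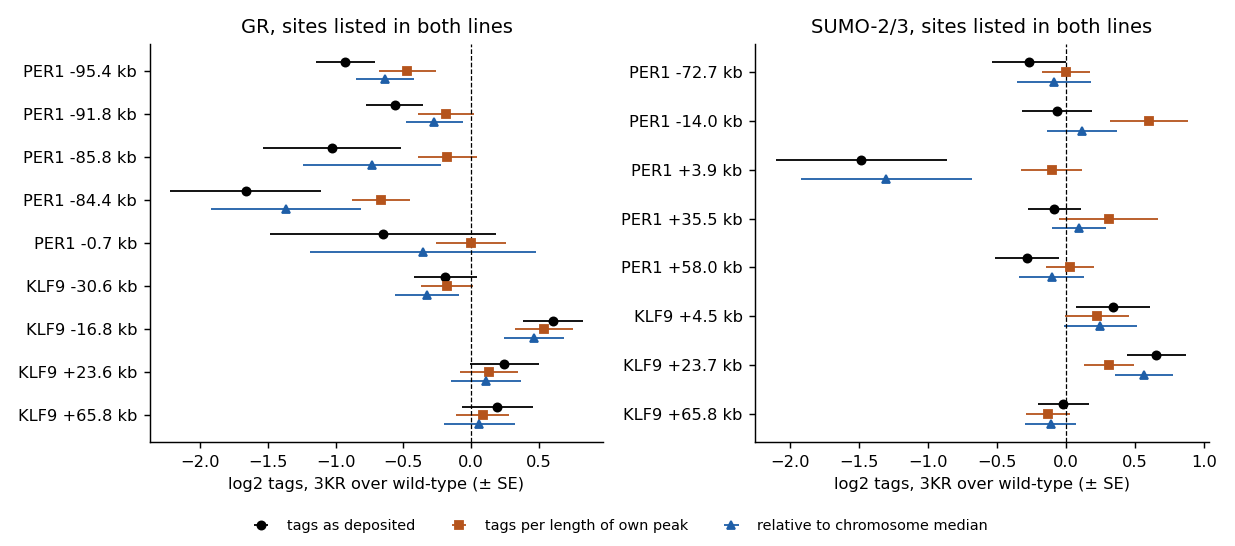
Log2 ratio of tags, 3KR over wild-type (x axis, ± SE), at sites that paired with a single site of the other line, for GR (left, 9 sites) and SUMO-2/3 (right, 8 sites), named by gene and distance of the midpoint from the window centre. Black circles use tags as deposited, orange squares tags per length of each library's own peak, and blue triangles tags relative to the chromosome median; the PER1 values moved towards 0 when peak length was taken into account for GR.

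For SUMO-2/3, 8 member sites could be compared in the same way. The 5 PER1 values ran from -1.48 to -0.06 and the 3 KLF9 values from -0.02 to 0.65, with edgeR adjusted p-values between 0.122 and 0.956. The lowest was the site at 2.91 to 4.97 kb upstream of PER1 (-1.48, SE 0.62), which wild-type library 2 had read as 1 peak of 6816 bp with the site at the start; per length of peak it was -0.10, and without that library -0.02. The strong site at 14.0 kb on the gene side of PER1 had -0.06 (SE 0.25) and that at 35.5 kb upstream -0.08 (SE 0.19). At KLF9, the region next to the start had 0.34 (SE 0.27) and the site at 23.7 kb upstream 0.65 (SE 0.21, edgeR adjusted p = 0.122). The SUMO-2/3 site covering the PER1 start was left out of this fit, because it overlapped 2 sites of the 3KR line. So were the 11521 bp site, the pair at 66.6 to 75.0 kb upstream and the 2 wild-type GR sites next to the KLF9 start, none of which paired with a single site. With all overlapping pairs kept, the site covering the PER1 start had -1.31 (SE 0.55, edgeR adjusted p = 0.210) against the gene-side 3KR site. Against the upstream 3KR site it had -1.19 (SE 0.44, edgeR adjusted p = 0.170). Its wild-type peaks were 5482 and 6816 bp long, those of the 3KR sites 1755 to 4856 bp. The other left-out sites ran from -0.80 to 0.74, and no member passed an edgeR adjusted p of 0.05.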

How the data were processed

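Peak lists of 9 of the 11 samples were used; the input and IgG libraries were not analysed here. The submitters' processing notes name CASAVA, Bowtie 0.12.9 and the build hg19; a peak caller was not given in the sources used here. The authors deposited, per the file headers, tags (whole counts in a library's own peak, not normalized), a fold enrichment (a ratio to background), an FDR in percent and a p column, which passes 3100 and was treated as a score and not used. All listed peaks had over 50 tags and a fold above 8. The stretch listed is the same in both libraries of a group and was never wider than either library's peak, so it was read as their common part; a summit was fixed where a library's peak was as long as the listed site or the stretch of listed sites it held.

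Sites overlapped if they shared 1 bp. Ranks use the mean rank of fold over libraries. Tags were tested with edgeR 4.0.16 (quasi-likelihood, TMM, Benjamini-Hochberg over all shared sites, threshold 0.05), without a replicate block, since the labels do not say that equal numbers mark a shared culture. DESeq2 1.42.0, other factors, length and chromosome offsets, other pairings and left-out libraries were alternatives; the fit on comparable peak lengths was added after seeing the data. Nothing says whether libraries came from separate cultures, so p-values measure the spread between libraries. The members and lists were chosen with earlier results of these data known. Sites with values for each library were, per list and window, the 6 best by rank (all, if fewer), those within 5 kb of the centre and those overlapping such a site of another list; the few others were added after their values were seen. Motifs were searched in RefSeq promoters (GRCh38.p14).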

Additional observations from a re-analysis of the deposited data

How the results depend on the processing

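Requiring a fold at or above the list median in every library left 6 wild-type GR, 8 3KR GR, 8 wild-type and 7 3KR SUMO-2/3 sites. In the whole lists 40.1%, 40.3%, 40.9% and 39.0% of sites passed, in the same order. Windows of 50 kb each side held 7, 8 and 8 sites in the first 3 of these lists. At an FDR of 1 percent or less, 1 control-line site was left. With centres within 200 bp, 2 control-line sites had a 3KR GR site, SUMO-2/3 lay on 5 wild-type and 2 3KR GR sites, GR on 5 wild-type and 2 3KR SUMO-2/3 sites, and 5 SUMO-2/3 sites were shared from either side. With both sites at or above the median fold, 5 GR sites were shared from either side, SUMO-2/3 lay on 2 wild-type and 1 3KR GR sites, GR on 2 wild-type and 1 3KR SUMO-2/3 sites, and 7 SUMO-2/3 sites were shared. Shares of the whole lists are not given for the FDR and overlap settings, so those counts stand without a comparison. The number of sites called between the lines moved with the fit. For GR it was 1505 with DESeq2, 1 with peak length as offset and 354 of 5548 with comparable peak lengths. For SUMO-2/3 it was 844 with DESeq2, 224 with peak length, 0 with the chromosome offset (1079 at an unadjusted p under 0.05), 0 with all overlapping pairs (1436 at an unadjusted p under 0.05) and 459 with comparable peak lengths, against 56. Leaving out 1 library gave 0 to 370 GR and 0 to 70 SUMO-2/3 sites. With the replicate block 1787 GR and 618 SUMO-2/3 sites were called; deviations of libraries with the same number correlated at 0.420 and 0.366, over 2 pairs. The block called 3 PER1 GR sites, at 95.4, 85.8 and 84.4 kb (adjusted p = 0.0138, 0.0345 and 0.00982). The cause of these changes was not tested. Signs turned with peak length at 4 PER1 SUMO-2/3 sites, to 0.00 at 72.7, 0.60 at 14.0, 0.31 at 35.5 and 0.03 at 58.0 kb, and with the chromosome offset to 0.12 at 14.0 and 0.10 at 35.5 kb. Over left-out libraries, GR values ran from -1.89 to 0.93 at the PER1 start, -0.35 to 0.00 at 30.6 kb and -0.04 to 0.53 at 65.8 kb of KLF9, and SUMO-2/3 values from -0.33 to 0.16 at 14.0 kb of PER1 and -0.12 to 0.08 at 65.8 kb of KLF9. Without wild-type library 1, the distal PER1 GR sites at 85.8 and 84.4 kb had -1.56 and -2.24, and SUMO-2/3 at 3.9 kb had -2.19. No PER1 site had comparable peak lengths in all 4 libraries. Unequal peak lengths limit every comparison of tags.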
